A study of Bos taurus with 15 samples.

Results

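The transcripts described here belong to 10 genes whose proteins remodel, process and crosslink the collagenous matrix: the protease inhibitors TIMP1, TIMP2 and TIMP3, the metalloproteinases MMP2 and MMP14, the lysyl oxidases LOX, LOXL1 and LOXL2, the procollagen processing enhancer PCOLCE and the collagen chaperone SERPINH1. They were chosen by name, with earlier results of these data known. All 10 were on the array, among 14638 tested genes, with 11 probes and 22 spots. Expression was measured in bovine biceps brachii, a skeletal muscle of the forelimb, collected at slaughter, with total RNA hybridised to 1-colour Agilent arrays and 1 array per animal. The 8 animals of the prednisolone group, P25 to P32, were given this synthetic glucocorticoid orally for 35 days, at a daily dose of 30 mg per head. The 7 animals of the control group were C17, C18 and C20 to C24. The treatment text attached to the control samples describes the growth promoters Finaplix and Revalor and the glucocorticoid dexamethasone, although each of these samples is labelled as a control, and it does not say that these animals received them. RNA was extracted with TRIzol and an RNeasy MinElute cleanup in the prednisolone group and with the RNeasy Mini kit in the control group, so an effect of the extraction and an effect of the treatment cannot be told apart. Age and breed were not given in the sources used here.

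Muscle fibres are held together by sheets of connective tissue whose main fibres are collagens, made chiefly by fibroblasts. SERPINH1 accompanies the procollagen chains in the endoplasmic reticulum, PCOLCE speeds the removal of the C-terminal propeptide by BMP1, and the lysyl oxidases convert lysines of collagen and elastin into the aldehydes from which crosslinks form. Metalloproteinases cleave the finished matrix and TIMP proteins block them. Glucocorticoids are known to lower collagen synthesis in skin and other connective tissues.

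The share of spots with a value ran from 72.1% to 87.4% between arrays, and 65.0% to 72.6% of probes lay well above background on the 8 prednisolone arrays, the arrays whose scanner output was used here. Levels are log2 intensities after the arrays were shifted to a common 75th percentile, and levels of different probes cannot be compared with each other. Of 8 listed markers of muscle fibres, 7 were tested and all 7 were well above background on the 8 prednisolone arrays, and their summed level lay between 20.14 and 20.45 in prednisolone animals and between 20.22 and 20.58 in control animals. This sum follows the brightest probes. Over the 15 arrays the range of a single marker of the list ran from 1.35-fold to 38.0-fold. Transcripts of other tissues stood out on some arrays. TNMD, which encodes tenomodulin of tendon, spanned 4.48 to 13.60 in prednisolone animals and 4.55 to 11.72 in control animals. The sperm protamine PRM1 reached 17.48 on P31 and 17.84 on C20, and DNTT, an enzyme of thymocytes, reached 12.10 on P30, 11.31 on P32 and 13.77 on C17.

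The annotation of the 10 genes is of unequal strength. TIMP1, TIMP2, MMP2, MMP14, LOX and LOXL1 carried their own symbol in the array's gene name. PCOLCE and SERPINH1 were identified through a gene identifier, and LOXL2 through the description of an expressed sequence tag. For TIMP3 the description named that gene by similarity to human, while the array's gene name was CHRNA3, a nicotinic receptor subunit, so its value is that of a probe whose fields disagree. MMP2 had 2 probes, and its brighter one represents it. In 9 of the 10 genes the probe lay well above background on all 8 prednisolone arrays. MMP14 did so on 1 of 8.

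No gene of the group differed between prednisolone and control animals by limma's test, with p-values adjusted by Benjamini-Hochberg over every probe tested. Their adjusted p-values lay between 0.993 and 0.999, and in every one the ranges of the 2 groups overlapped. Differences are log2 levels of prednisolone minus control and ran from -0.24 in LOXL2 to 0.11 in TIMP2, with 6 negative and 3 positive among the 9 genes well above background. Without C18, P25 and P26, an exclusion chosen after seeing the data, the differences of all 9 genes well above background were negative. None of the 10 genes was called by limma (adjusted p at least 0.983). LOX then differed by -0.53, LOXL2 by -0.47, PCOLCE by -0.33, LOXL1 by -0.31 and MMP2 by -0.29. P25 and P26 were the highest prednisolone animals in several of these genes, so leaving them out lowers that group's mean. The exclusion of C17, P30 and P32 was also chosen after seeing the data. It put TIMP1 at 0.23, TIMP2 at 0.18, LOX at 0.15, LOXL1 at 0.12 and SERPINH1 at 0.27. TIMP3 (-0.095), MMP2 (-0.025), PCOLCE (-0.021) and LOXL2 (-0.00033) were then negative. In bulk muscle, fewer cells of a type and less RNA per cell cannot be told apart.

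Among the inhibitors, TIMP1, a secreted inhibitor of many metalloproteinases, measured 8.89 in the lowest, 9.80 at the median and 10.50 in the highest prednisolone animal, against 9.14, 9.72 and 10.10 in control animals. P25 and P26 were high and P30, P31 and P32 low, and the control range lay inside that of the prednisolone group. The means were 9.70 ± 0.61 (SD, n = 8) in prednisolone animals and 9.67 ± 0.38 (SD, n = 7) in control animals, a difference of 0.038 with a 95% interval of -0.51 to 0.59. TIMP2, which also takes part in the activation of MMP2 at the cell surface, measured 13.00, 13.36 and 14.59 at the lowest, median and highest in prednisolone animals, against 13.03, 13.12 and 14.33 in control animals. P31 was highest in the prednisolone group, with P25 next at 13.97, and C20 was highest in the control group, with C21 next at 13.96. P31 and C20 were also the arrays with the highest PRM1. The TIMP2 difference was 0.11 (95% interval -0.45 to 0.67), and 6 of 8 prednisolone animals lay above the control median. The probe described as TIMP3, an inhibitor that binds to the matrix and also blocks ADAM proteases, measured 11.86, 12.14 and 12.66 in prednisolone animals and 11.84, 12.23 and 12.53 in control animals. Its groups covered almost the same span. The difference was -0.047 (95% interval -0.34 to 0.25), the narrowest interval among the 10 genes.

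Among the proteases, MMP2, the gelatinase that cleaves denatured collagen and basement membrane collagen, measured 10.26 in the lowest, 11.03 at the median and 12.66 in the highest prednisolone animal, against 10.18, 11.46 and 12.56 in control animals. P25 and P26 in the prednisolone group and C18 in the control group were the highest, and P30 and C17 the lowest. The means were 11.31 ± 0.85 (SD, n = 8) in prednisolone animals and 11.39 ± 0.82 (SD, n = 7) in control animals, and the difference was -0.078 (95% interval -0.95 to 0.79). The dimmer MMP2 probe gave -0.060 and ranked the same animals highest and lowest in each group. Across the 15 animals the group-centred levels of the 2 MMP2 probes had a Pearson r of 0.94. MMP14, a membrane-bound protease that activates MMP2, was not well above background on 7 of 8 prednisolone arrays. Its levels were 3.28, 3.47 and 4.29 at the lowest, median and highest in prednisolone animals and 3.17, 3.47 and 4.19 in control animals. The software found both MMP14 spots on 9 of 15 arrays, and where both were found they differed by up to 1.46, so its average depends on which spots were found. Its difference, -0.050, is given as a value from which no direction or fold is read.

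The lysyl oxidases had wide ranges in both groups. LOX measured 7.28, 8.87 and 9.88 at the lowest, median and highest in prednisolone animals, against 8.26, 9.11 and 9.59 in control animals. P30 lay 1.60 below the mean of its group, and P25 and P26 were highest. The LOX means were 8.88 ± 0.85 (SD, n = 8) in prednisolone animals and 9.08 ± 0.42 (SD, n = 7) in control animals, and differed by -0.20 (95% interval -0.91 to 0.52). LOXL1, which acts chiefly on elastic fibres, measured 7.01, 8.13 and 9.53 in prednisolone animals and 7.01, 8.38 and 8.83 in control animals. The lowest animal had the same level to 2 decimals in both groups, P32 in the prednisolone group and C17 in the control group. The LOXL1 difference was -0.022 (95% interval -0.83 to 0.79), with 2 of 8 prednisolone animals above the control median. LOXL2, which crosslinks collagen of basement membranes and is also found in the nucleus, measured 9.21, 10.33 and 11.94 in prednisolone animals and 9.89, 10.30 and 11.87 in control animals. P26 and P25 in the prednisolone group and C18 and C22 in the control group stood clear of the other animals. Its means were 10.38 ± 0.93 (SD, n = 8) in prednisolone animals and 10.62 ± 0.80 (SD, n = 7) in control animals, and differed by -0.24 (95% interval -1.15 to 0.67), the widest interval of the group.

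PCOLCE measured 7.82 in the lowest, 8.64 at the median and 9.89 in the highest prednisolone animal, against 8.16, 8.89 and 9.79 in control animals. P25 and P26 were again high, with P32 lowest, and among the controls C18 was high and C24 low. The PCOLCE difference was -0.13 (95% interval -0.82 to 0.56). SERPINH1 measured 11.75, 12.54 and 12.92 in prednisolone animals and 11.94, 12.23 and 13.06 in control animals. Its pattern was another one: P26 and P27 were highest in the prednisolone group, and C23 was highest in the control group, as it was for none of the other genes. SERPINH1 differed by 0.084 (95% interval -0.39 to 0.55), with 6 of 8 prednisolone animals above the control median.

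**Figure D1:**
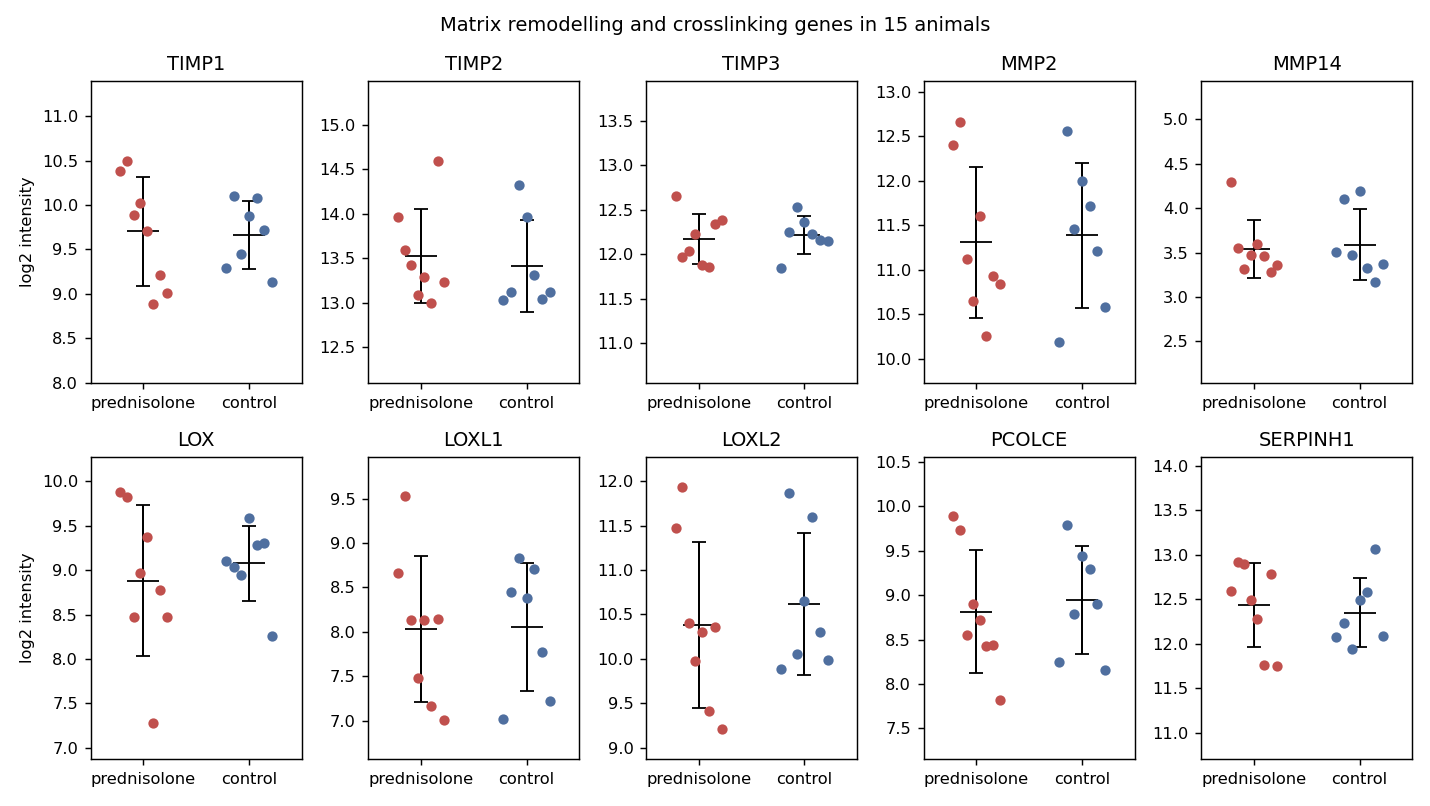
Log2 intensity (vertical axis, with a range of its own in each panel) of each of the 10 genes in 8 prednisolone animals (left, red) and 7 control animals (right, blue); each point is 1 animal, the horizontal line the group mean and the bars 1 SD. The groups overlap in every panel; LOXL2 reaches 11.94 in the prednisolone group and 11.87 in the control group.

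In the comparison over the whole array, limma called 0 of 14638 genes (0.0%), and 480 genes (3.28%) had an unadjusted p under 0.05. The exact Wilcoxon rank sum test called 0 genes too, with 404 at an unadjusted p under 0.05. None of the 10 genes had an unadjusted p under 0.05 by either test. The groups did not overlap in 28 genes of the array (0.191%), and in 0 of these 10. Their median difference was -0.049, against 0.0099 over all genes, of which 47.9% had a negative difference. Each 95% interval is that of a single gene, not adjusted over the array, and covers the treatment and the extraction together. In 8 of the 9 genes well above background neither end of the 95% interval reached a 2-fold change, and only the LOXL2 interval reached past it, on the lower side. The lower ends of MMP2 (-0.95) and LOX (-0.91) came near it. A larger effect of the treatment alone is not excluded by these intervals.

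**Figure D2:**
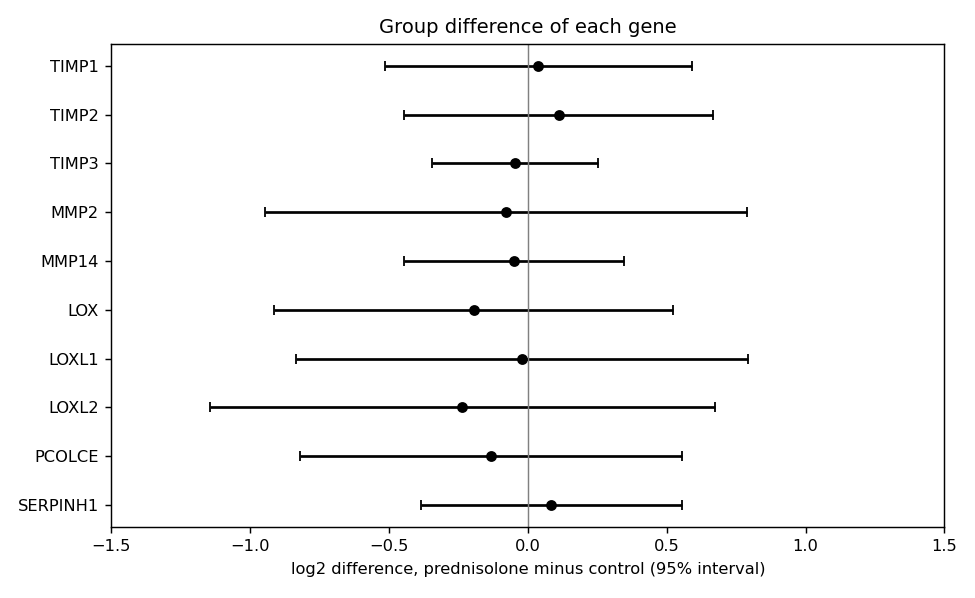
Log2 difference of prednisolone minus control (horizontal axis) for each gene, with points for the estimate and bars for the 95% interval of the limma fit. Every interval includes 0, and the estimates lie between -0.24 for LOXL2 and 0.11 for TIMP2.

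In each of the 10 genes the SD between animals of a group was larger than the difference between the groups. From the lowest to the highest of the 15 animals LOXL2 spanned 6.61-fold, LOX 6.06-fold, LOXL1 5.72-fold and MMP2 5.59-fold. PCOLCE spanned 4.19-fold, TIMP1 3.05-fold, TIMP2 3.02-fold, SERPINH1 2.49-fold and TIMP3 1.76-fold. Duplicate spots of these 9 genes differed on 1 array by at most 0.33 on the log2 scale. Among 9531 genes with a value on all 15 arrays and well above background on all prednisolone arrays, the SD within groups of LOXL2 stood at percentile 94.5, that of MMP2 at 93.7 and that of LOXL1 at 92.6. LOX stood at 89.7 and PCOLCE at 88.5, TIMP2 at 80.3, TIMP1 at 79.8, SERPINH1 at 70.0 and TIMP3 at 24.7.

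The same animals were high or low in several of these genes. TIMP1, MMP2, LOX, LOXL1, LOXL2 and PCOLCE are described together in what follows, a set of 6 genes put together after their correlations were seen. P25 and P26 lay above the median of the prednisolone group in 6 of these 6 genes, P30 and P32 in 0 of 6. In the control group C22 lay above the group median in 6 of 6, C18 and C21 in 5, and C17 and C24 in 0. The median deviation of the 6 genes from the group mean was 1.15 in P26 and 1.04 in P25, against -0.92 in P30 and -0.84 in P32. P25 and P26 shared a slide. P27 and P28 shared another, with median deviations of -0.082 and -0.16, and P29 and P30 a further one, with 0.053 and -0.92. The part of the slide in these levels was not tested.

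**Figure D3:**
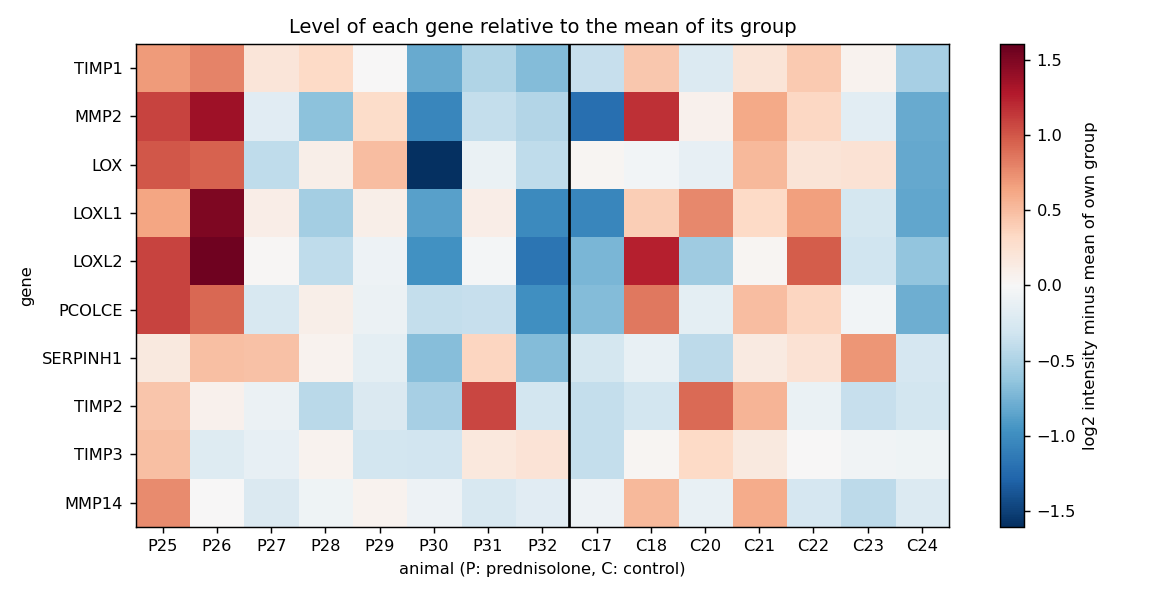
Level of each gene (rows) in each animal (columns, prednisolone left of the line and control right of it) as log2 intensity minus the mean of the animal's own group, in red above and blue below that mean. The columns of P25, P26 and C18 are mostly red and those of P30, P32 and C24 mostly blue in the upper 6 rows, while TIMP2 is highest in P31 and C20.

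Covariation between animals was tested on levels centred within each group, with Pearson's r and Spearman's rho over 15 animals, two-sided permutation tests and Benjamini-Hochberg adjustment over all 45 pairs. By r, 20 of 45 pairs were called, all of them positive. By rho 17 pairs were called, and 15 by both. The strongest pair was TIMP1 with PCOLCE (r = 0.895, permutation p = 2e-05, adjusted p = 0.00027, and rho = 0.936, permutation p = 1e-05, the smallest these permutations can give, adjusted p = 0.00045), with an r of 0.914 without P30 and P32, the 2 animals farthest from the TIMP1 median. LOXL2 with PCOLCE had r = 0.890 (adjusted permutation p = 0.00027) and rho = 0.871 (adjusted permutation p = 0.000675). MMP2 with LOXL2 had r = 0.877 and rho = 0.882, and MMP2 with LOXL1 had r = 0.869 and rho = 0.861, with adjusted permutation p from 0.00027 to 0.00075 for these 4 values. All 15 pairs within the set of 6 were called by r and 14 by rho, with r from 0.66 to 0.90. Because the set was put together after these correlations were seen, these counts describe it and do not test it. LOX with LOXL1 was the pair not called by rho (rho = 0.511, adjusted permutation p = 0.103). Within the prednisolone group these 15 values of r lay between 0.74 and 0.98, and within the control group between 0.33 and 0.97. Without the 2 animals farthest from the median of the first gene of each pair they lay between 0.57 and 0.91.

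Of the 30 pairs that involve TIMP2, TIMP3, MMP14 or SERPINH1, 5 were called by r and 3 by rho. SERPINH1 covaried with TIMP1 (r = 0.650, adjusted permutation p = 0.0244) and with LOX by r alone (r = 0.577, adjusted permutation p = 0.0484, rho = 0.561, adjusted permutation p = 0.069). The r with TIMP1 was 0.415 without P30 and P32, and the r with LOX was 0.435 without P25 and P30. SERPINH1 was called with LOXL2 by rho alone (rho = 0.714, adjusted permutation p = 0.0122, r = 0.574, adjusted permutation p = 0.0549), as TIMP2 was with LOXL1 (rho = 0.725, adjusted permutation p = 0.0110, r = 0.548, adjusted permutation p = 0.0714). TIMP2 covaried with the probe described as TIMP3 by r alone (r = 0.631, adjusted permutation p = 0.0285, rho = 0.561, adjusted permutation p = 0.069). Without C20 and P31 this pair was not called (r = 0.577, adjusted permutation p = 0.0677). MMP14, for which most levels lay near background, covaried by r with PCOLCE (r = 0.680) and with MMP2 (r = 0.620) but was not called with either by rho (adjusted permutation p = 0.097 and 0.178). Its highest averages, in P25 (4.29), C21 (4.19) and C18 (4.10), came from arrays on which its dimmer spot was not found. The part of the missing spots in the r values of MMP14 was not tested. TIMP1 and TIMP2, members of the same inhibitor family, had r = 0.095 (adjusted permutation p = 0.768) and rho = 0.279 (adjusted permutation p = 0.391). The low values of TIMP2 rest on C20 and P31: without them, over 13 animals, TIMP2 was called by r with 4 of the set of 6, MMP2 (r = 0.670), LOX (0.648), LOXL1 (0.641) and PCOLCE (0.616), and had r = 0.529 with LOXL2 and 0.575 with TIMP1. In all, 25 of 45 pairs were then called.

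Strong positive correlations were not rare on these arrays. Of all 45415215 pairs among the 9531 well measured genes, 5.68% had an r at or above 0.577, that of the weakest called pair of the 10 genes, against 20 of 45 pairs here. The median r was 0.519 over the 45 pairs and 0.011 over all pairs. The set was put together by name from genes of the same tissue compartment, with earlier results of these data known. The correlation of all its pairs rests on the same 15 animals. Without C18, P25 and P26, the arrays with the highest TNMD, 2 of 45 pairs were called, and r within the set of 6 lay between 0.47 and 0.84 over 12 animals. Without C17, P30 and P32, the arrays with the highest DNTT, 14 pairs were called. Both exclusions were chosen after seeing the data. Leaving out single animals gave 14 called pairs without P25 and up to 22 without C23.

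**Figure D4:**
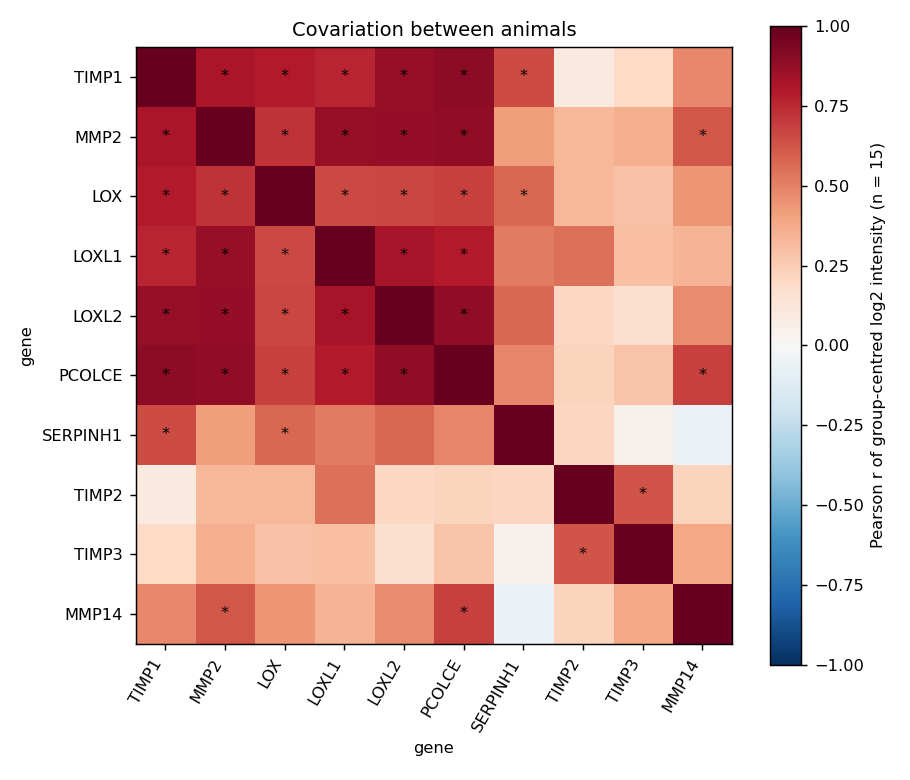
Pearson r between each pair of genes (rows and columns) over 15 animals, from group-centred log2 intensity, in red for positive and blue for negative values; a star marks an adjusted permutation p under 0.05. The upper left square of TIMP1, MMP2, LOX, LOXL1, LOXL2 and PCOLCE, put together after these correlations were seen, holds r from 0.66 to 0.90. TIMP2 and TIMP3 share the star at 0.631 and were not called by rho.

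The collagens these proteins act on varied along with them. COL1A1, the main chain of type I collagen, and COL3A1, the chain of type III collagen, were each called with all of TIMP1, MMP2, LOX, LOXL1, LOXL2 and PCOLCE by r and by rho, in a family of 30 relations of which 16 were called by r. COL1A1 was closest to PCOLCE (r = 0.935, adjusted permutation p = 0.00015, and rho = 0.932, adjusted permutation p = 0.0003), with r = 0.933 in prednisolone animals and 0.962 in control animals. COL3A1 was closest to LOXL2 (r = 0.901, adjusted permutation p = 0.0001, and rho = 0.889, adjusted permutation p = 0.0003), with r = 0.942 in prednisolone animals and 0.929 in control animals. SERPINH1 was called with both chains (r = 0.575 with COL1A1 and 0.687 with COL3A1), and MMP14 with COL1A1 by r alone (r = 0.649). The limit from missing MMP14 spots applies to that r too. Of 9530 other well measured genes 4.97% had an r with COL1A1 at or above 0.575, against 8 of the 10 genes, and 2.35% had an r with COL3A1 at or above 0.687, against 7 of 10. TIMP2 and TIMP3 were called with neither, with r from 0.257 to 0.440. Without C18, P25 and P26, 9 of the 12 relations of the set of 6 with these collagens were called, with r from 0.53 to 0.87.

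The tendon transcript TNMD ran along with the same genes. It was examined together with DNTT, the muscle actin ACTA1 and the share of spots with a value, in 40 relations chosen after seeing the data. TNMD measured 12.39 in P25, 13.60 in P26 and 9.52 in P29, and at most 8.66 in the other prednisolone animals, with 4.48 in P32. In control animals it measured 11.72 in C18, at most 8.81 in the others and 4.55 in C24. Its range over the 15 animals was 556-fold. With LOXL2 it had r = 0.918 (permutation p = 1e-05, adjusted p = 0.0004) and rho = 0.854 (permutation p = 0.00013, adjusted p = 0.00213), with r = 0.935 in prednisolone animals, 0.899 in control animals and 0.847 without the 2 animals farthest from the TNMD median. PCOLCE (r = 0.883), MMP2 (0.878), LOXL1 (0.790), TIMP1 (0.782) and LOX (0.725) were called with TNMD too, by r and by rho. Of the 9530 well measured genes, 1.57% had an r with TNMD at or above 0.725, that of LOX. TIMP2, TIMP3, MMP14 and SERPINH1 were not called with it. Without C18, P25 and P26, 0 of 10 relations with TNMD were called by the permutation test, LOXL2 with r = 0.745 (adjusted permutation p = 0.0533), and without C17, P30 and P32, 3 were called. Of 2 listed tendon markers TNMD was the 1 tested, and it was well above background on all prednisolone arrays. The part that tendon in the samples has in the covariation was not tested.

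**Figure D5:**
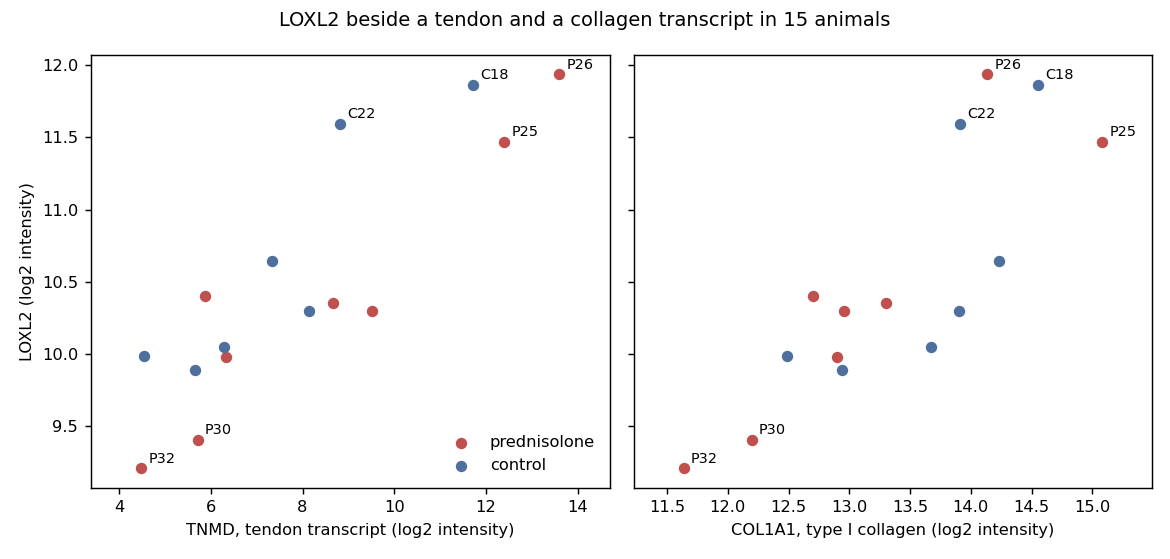
LOXL2 log2 intensity (vertical axis) against the log2 intensity of TNMD (left panel) and COL1A1 (right panel) in 8 prednisolone animals (red) and 7 control animals (blue), 1 point per animal. P25, P26 and C18 sit at the upper right of both panels and P30 and P32 at the lower left; C22 has a high LOXL2 with a TNMD of 8.81.

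Other measures of the arrays were set beside these genes, and few of their relations were called. The fibroblast markers, 5 of 5 tested and well above background on all prednisolone arrays, had a summed level of 13.44 to 15.08 in prednisolone animals and 13.53 to 14.86 in control animals, highest in P25 and C21. This sum too follows its brightest probe, that of DCN, which was itself highest in P25 and C21. The correlation of the sum with the 10 genes was not tested. ACTA1 of muscle fibres spanned 0.65 on the log2 scale and was called with 0 of the 10 genes (unadjusted permutation p from 0.207 to 0.926). DNTT had a negative r with each of the 10, and LOXL2 was called by r (r = -0.639, adjusted permutation p = 0.0476) but not by rho (adjusted permutation p = 0.096). DNTT itself was well above background on 4 of 8 prednisolone arrays and read 1.51 to 1.90 on P25, P26, P27 and P29. Its r values thus set a few high arrays against values near background. The other thymocyte marker genes were CD3E, well above background on all prednisolone arrays, and RAG1, on none. PRM1 was called with TIMP1 (r = -0.595, adjusted permutation p = 0.039, rho = -0.636, adjusted permutation p = 0.0264) and with no other of the 10 genes, and leaving out 1 animal ended this call for 10 of the 15 animals. The share of spots with a value was called with LOXL1 (r = 0.773, adjusted permutation p = 0.0054) and TIMP2 (r = 0.682, adjusted permutation p = 0.0230, rho = 0.789, adjusted permutation p = 0.00553). Within the prednisolone group it had r from 0.72 to 0.95 with the set of 6, highest with LOXL1 (0.953) and LOXL2 (0.942), and within the control group from -0.017 to 0.68. DNTT had r from -0.85 to -0.65 with the set of 6 within the prednisolone group and from -0.36 to 0.35 within the control group. The part of these measures in the levels of the 10 genes was not tested.

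For each gene the other genes with the most similar levels were sought among the well measured ones, by r of group-centred levels over the 15 animals, as a description. The nearest were CERCAM (r = 0.955) and SERPINF1 (0.954), a secreted serpin, for TIMP1, and the proteoglycan BGN (0.954) and AEBP1 (0.942), a collagen-binding protein, for MMP2. LOX was nearest to KDELR3 (0.895), a retrieval receptor of the secretory pathway, and FMOD (0.874), a collagen-binding proteoglycan. LOXL1 was nearest to the integrin chain ITGA11 (0.903), a collagen receptor, and ITGBL1 (0.880), and LOXL2 to the fibroblast surface protein THY1 (0.946) and the actin-severing GSN (0.940). For PCOLCE they were QSOX1 (0.966), which forms disulfide bonds, and IGFALS (0.962). SERPINH1 was nearest to DCBLD2 (0.872) and the tubulin TUBB6 (0.836). The neighbours of the remaining genes were DPP7 (0.898) and NRXN2 (0.875) for TIMP2, the myosin kinase MYLK (0.809) and the lysosomal LAMP1 (0.785) for TIMP3, and CTDSP2 (0.880) and NTRK2 (0.865) for MMP14. For MMP14 and NTRK2 rho was 0.482.

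Related genes of the same pathways were read from the same fit, and limma called 0 of the members of each of 5 lists. Over all 14638 genes, 3.28% had an unadjusted limma p under 0.05, the share to set beside the counts of each list. Of 9 tested inhibitors and plasminogen system genes, 5 had a positive and 4 a negative difference, and 3 had an unadjusted p under 0.05, with a median difference of 0.26. TIMP4, the remaining member of the TIMP family, averaged 10.87 ± 0.26 (SD, n = 8) in prednisolone animals and 11.32 ± 0.37 (SD, n = 7) in control animals, and differed by -0.45 (95% interval -0.80 to -0.09, adjusted p = 0.993), and 0 of 8 prednisolone animals lay above the control median. The urokinase receptor PLAUR averaged 6.63 ± 0.71 (SD, n = 8) in prednisolone animals and 5.56 ± 0.41 (SD, n = 7) in control animals, and differed by 1.07 (95% interval 0.45 to 1.68, adjusted p = 0.993), with 7 of 8 prednisolone animals above the control median. Neither value passed the test, and the ranges of the groups overlapped in both genes.

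Of 24 tested other metalloproteinases, 16 had a positive and 8 a negative difference, 2 had an unadjusted p under 0.05, and the median was 0.082. Only 12 of the 24 were well above background on all prednisolone arrays and 4 were on none. Of the 2 genes with an unadjusted limma p under 0.05, 1 was among these 12. Among the 12, ADAM10, a membrane protease that sheds surface proteins, differed by -0.40 (95% interval -0.66 to -0.14), MMP11 by 0.47 (95% interval -0.12 to 1.05) and MMP16 by -0.25 (95% interval -0.60 to 0.10). Of 16 tested genes of collagen processing and crosslinking 7 were positive and 9 negative, 0 had an unadjusted p under 0.05 and the median was -0.0016. There the cyclophilin PPIB, a prolyl isomerase of the endoplasmic reticulum, differed by 0.31, the transglutaminase TGM2 by -0.25 and the procollagen proteinase BMP1, which PCOLCE assists, by -0.24, none past the test.

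Of 9 fibrillar substrates 7 had a negative and 2 a positive difference, 1 had an unadjusted p under 0.05 (3.28% over all genes), and the median was -0.25. COL3A1 averaged 12.82 ± 0.83 (SD, n = 8) in prednisolone animals and 13.52 ± 0.37 (SD, n = 7) in control animals, and differed by -0.70 (95% interval -1.39 to -0.014, adjusted p = 0.993). COL1A1 differed by -0.56 (95% interval -1.53 to 0.41), COL1A2 by -0.44 and COL5A3 by -0.34, and in each of these 4 collagens 2 of 8 prednisolone animals lay above the control median. All 7 tested genes of the list of matrix-inducing signals had a positive difference, with a median of 0.18 and 1 unadjusted p under 0.05. That list mixes secreted factors with a receptor and intracellular mediators, an inhibitory mediator among them. The shared sign is therefore not read as a shared direction of signalling. The brighter probe of TGFB3, a transforming growth factor, differed by 0.62 (95% interval 0.09 to 1.14, adjusted p = 0.993) and its other probe by 0.19. CCN2, a matrix protein induced by that factor family, differed by 0.42 and TGFB2 by 0.18. None of these values passed the test.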

How the data were processed

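The deposited table holds 1 linear intensity per spot and array for 15 arrays. Per the labels and the series' design text, the slides were scanned at sensitivities of 100% and 10%, and Feature Extraction 9.5 gave a background-subtracted, detrended signal. The submitters' processing notes name R 2.11.1; for the authors' scaling of the arrays, the method is not given in the sources used. Per the file headers, the scanner output of the 8 prednisolone arrays (5 slides) came from Feature Extraction 9.5.1.1, and it supplied probe names and flags. Its intensities correlated with the deposited ones across spots at r of at least 0.9998. Slides of the control arrays are not known here, so slide could not be fitted as a block.

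Here the log2 of 42990 non-control spots was used. Arrays were shifted to a common 75th percentile, taken over the 14324 probes measured on all 15 arrays, and spots of a probe were averaged (21475 probes, 16216 of them named). A probe with at least 3 values per group was tested (20894), and the brightest probe represented a gene. Groups were compared with limma 3.58.1 (lmFit, eBayes) in R 4.3.3, without covariates, with Benjamini-Hochberg adjusted p-values over every tested probe and a call under 0.05. Correlations used scipy 1.17.1 and numpy 2.4.6 and 100000 resamples. The permutations moved group-centred levels over all 15 animals and made no allowance for the group means removed. Their p-values are therefore somewhat too small, which matters for adjusted values near 0.05. The procedure was tested on simulated data. The number of arrays limits the precision.

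The 10 genes and all lists were chosen with earlier results of these data known. Named are the 10 genes, COL1A1, COL1A2, COL3A1 and PRM1, per related list the 3 members with the smallest p among those well above background on all prednisolone arrays, and the 2 nearest genes of each of the 10; TNMD, DNTT and ACTA1 were added after seeing the data. A gene that this rule names is not reported here. Of 72 related genes listed, MMP10, MMP23B, ADAMTS3, TLL1, TLL2, P4HA1 and TGFBR2 had no tested probe matched to their name. Alternatives covered scaling, weights, variance model, test, filters, probe choice, a floor and arrays left out.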

Additional observations from a re-analysis of the deposited data

Results flagged for a closer look

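In the prednisolone group the MMP14 probe read 4.29 in P25, with the next animal at 3.59, a gap of 0.694 of the group's range against a critical value of 0.526. P25 had a value for 1 of the 2 MMP14 spots. Of 22 groups of probe values examined this was the 1 that stood out, and chance gives about 5% of groups.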

How the results depend on the processing

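None of the 10 genes was called by limma or the exact Wilcoxon test under any of 14 other settings or with any of the 15 animals left out, and the lowest unadjusted p among 289 recomputed differences was 0.133. The sign turned in 34 of them; the cause was not tested. With array weights MMP14 was at 0.055 and SERPINH1 at -0.059, with quantile normalization MMP14 at 0.081 and LOXL1 at 0.048. Without C20 and P31 LOXL1 was at 0.092 and SERPINH1 at -0.035, without C17, P30 and P32 LOX at 0.15 and LOXL1 at 0.12, and without C18, P25 and P26 TIMP1 at -0.14, TIMP2 at -0.025 and SERPINH1 at -0.044, while LOX (-0.53), LOXL2 (-0.47), PCOLCE (-0.33), LOXL1 (-0.31) and MMP2 (-0.29) lay further below 0 than with all animals. With 1 animal left out TIMP1 ran from -0.076 to 0.15, TIMP2 from -0.042 to 0.26, TIMP3 from -0.12 to 0.0053, MMP2 from -0.28 to 0.12, MMP14 from -0.16 to 0.049, LOX from -0.34 to 0.033, LOXL1 from -0.24 to 0.12 and PCOLCE from -0.29 to 0.0090. LOXL2 (-0.46 to -0.029) and SERPINH1 (0.014 to 0.20) kept their sign there. The floor at log2 5 gave no value for MMP14.

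Over all genes 0 to 1 were called with 1 animal left out: PZP without P31 (2.25) and ZNF696 without C23 (4.17). Without C20 and P31 1 gene was called, PZP (2.36); both names were taken after their values were seen. Called pairs of the 10 genes numbered 14 to 22 with 1 animal left out, 28 with quantile normalization, 25 without C20 and P31, 14 without C17, P30 and P32 and 2 without C18, P25 and P26. Relations with TNMD called numbered 6, but 7 with quantile normalization, 3 without C17, P30 and P32 and 0 without C18, P25 and P26. Fewer animals enter each setting that leaves animals out. No paired analysis was possible because the groups share no animal numbers. MMP14 is limited by a signal near background.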
